A study of Homo sapiens with 12 samples.

Results

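The genes examined were 10 members of the heterogeneous nuclear ribonucleoprotein (hnRNP) family, HNRNPA1, HNRNPA2B1, HNRNPA3, HNRNPC, HNRNPD, HNRNPDL, HNRNPH1, HNRNPK, HNRNPL and HNRNPU, taken by gene symbol from the 61860 genes in the data. They carried 313 of the 251121 annotated transcripts, and 279 of these held a count in at least 1 library. The 12 RNA-seq libraries came from 2 derivatives of Flp-In T-REx 293, a human embryonic kidney (HEK293) line with a doxycycline-inducible integration site, each grown from selected colonies. All cells were given 1 µg/ml doxycycline for 6 days, which switched on microRNAs against endogenous PGC-1α together with a FLAG-tagged, microRNA-resistant PGC-1α. The construct was wild type in the WT-res line and lacked the arginine/serine-rich (RS) domain, an RNA-binding region, in the ΔRS-res line. Each line gave 3 whole-cell and 3 cytoplasmic libraries from consecutive passages, with whole-cell RNA from a single well and cytoplasmic RNA from 6 pooled wells after hypotonic lysis, so an effect of the construct and a difference between colonies cannot be told apart. The question was how the hnRNP genes and their isoforms differ between the fractions and between the lines.

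hnRNP proteins coat nascent transcripts in the nucleus, choose splice sites, and accompany mRNA on its way to the cytoplasm. Several of them adjust their own level through alternative splicing of their own transcripts into forms that keep an intron or that carry a premature stop codon and are degraded by nonsense-mediated decay (NMD). Transcripts that keep an intron are commonly held in the nucleus. The libraries were depleted of ribosomal RNA rather than selected for poly(A), so unspliced nuclear RNA was also measured in whole-cell samples.

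The libraries held between 90333190 and 144628005 counts, and every member had at least 29788 counts in every library. Counts of PPARGC1A, which encodes PGC-1α and cannot be split into endogenous and construct RNA in these sums, ranged from 296 to 485 CPM (counts scaled to a common library size) in ΔRS-res and from 548 to 670 CPM in 5 WT-res libraries. The library labelled whole-cell WT-res 3 stood apart, with 485 CPM of PPARGC1A. It also held 0.194 CPM of DDX19B, against 12.2 to 15.1 in the other WT-res libraries and 0.219 to 0.352 in ΔRS-res, and 326 CPM of SDHA, against 68.9 to 77.6 and 327 to 381. It was kept under its label, and whole-cell comparisons are given with and without it. The HEK293 markers were present at uneven levels, with NEFL at 184 to 379 CPM, PAX2 at 2.77 to 5.92, LHX1 at 1.66 to 4 and NEFM below 1 CPM. Fibroblast, leukocyte and endothelial markers stayed at or below 0.11 CPM. Of the nuclear RNAs, NEAT1 ranged from 206 to 327 CPM in whole-cell and 74.8 to 124 in cytoplasmic libraries, and KCNQ1OT1 from 21.2 to 28.6 and 6.33 to 8.94. MALAT1 overlapped between the fractions, at 1303 to 3062 and 985 to 1726 CPM, with a log2 fold change of -0.56 ± 0.204 (edgeR adjusted p = 0.0359), against -1.51 ± 0.148 for NEAT1 and -1.72 ± 0.101 for KCNQ1OT1. With bulk RNA, a different number of cells expressing a gene and a different amount of RNA per cell cannot be told apart.

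The 10 genes together took 0.772% to 1.12% of all counts. Compared per length, as CPM per kilobase of transcript, HNRNPA1 was the highest in every library, at 1143 to 1265 in whole-cell and 1631 to 1898 in cytoplasmic RNA. HNRNPA1 is a shuttling splicing repressor with a glycine-rich tail. The order of the remaining whole-cell means was HNRNPU 427, HNRNPC 415, HNRNPA2B1 393, HNRNPH1 342, HNRNPK 313, HNRNPD 297, HNRNPL 288, HNRNPA3 202 and HNRNPDL 179 CPM per kilobase, and every neighbouring pair below HNRNPA1 overlapped in range. In the cytoplasm HNRNPA2B1 came next after HNRNPA1, with a mean of 518, and HNRNPDL was again lowest, with 235, and the neighbours below HNRNPA1 overlapped there too. The plot of CPM by library shows these levels without length correction.

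**Figure D1:**
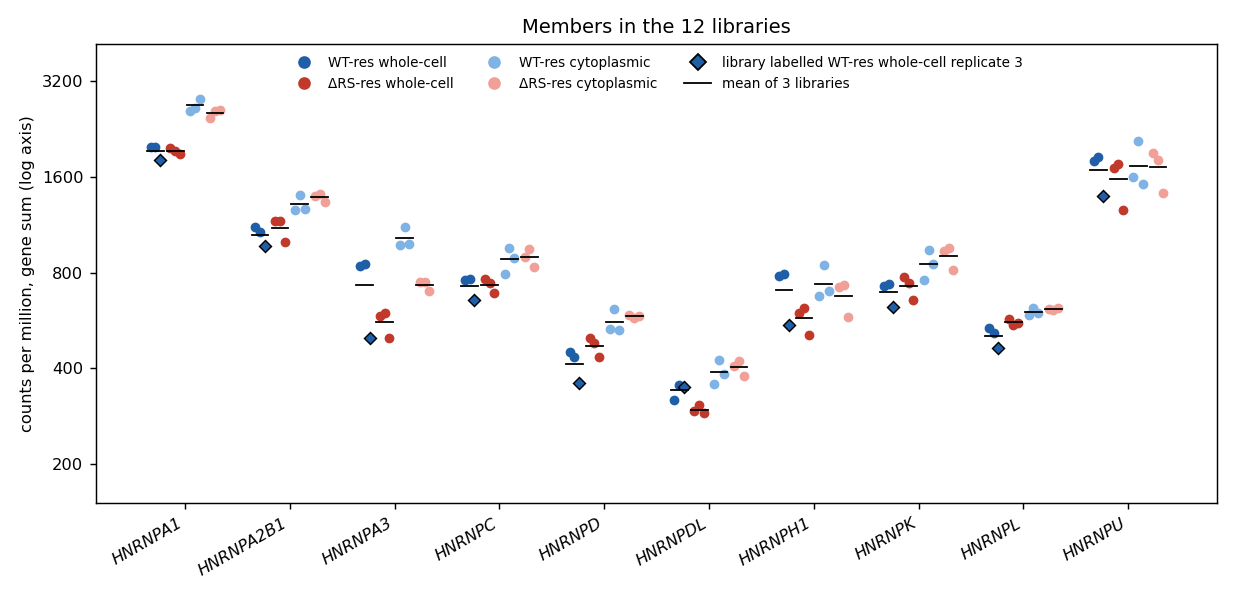
Gene sums of the 10 hnRNP genes in CPM (log axis) in each of the 12 libraries; points are libraries, bars are means of 3, and the diamond is the library labelled whole-cell WT-res 3. HNRNPA1 lies between 1805 and 2827 CPM, and HNRNPA3 is lower in the 3 cytoplasmic ΔRS-res libraries (701 to 748) than in the 3 cytoplasmic WT-res libraries (975 to 1114).

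Most hnRNP mRNAs were higher in the cytoplasm. In the quasi-likelihood test of edgeR, with p-values adjusted by Benjamini-Hochberg, over the mean of both lines, 8 of the 10 gene sums were higher in cytoplasmic than in whole-cell RNA and none was lower, where 23.7% of 26686 genes tested were called higher. The members' median log2 fold change was 0.32, against -0.06 over all genes tested and 0.13 over the 14938 genes with a mean count of at least 100. All of these are relative levels within a library, not amounts per cell. HNRNPA1 (chr12:54280193-54287088, plus strand, GRCh38) held 1995, 1982 and 1805 CPM in WT-res whole-cell libraries and 1974, 1934 and 1888 in ΔRS-res. In the cytoplasm it held 2592, 2647 and 2827 CPM in WT-res and 2463, 2575 and 2596 in ΔRS-res. Every cytoplasmic library lay above every whole-cell library, and the log2 fold change was 0.44 ± 0.0438 (SE; edgeR adjusted p = 4.19e-06). HNRNPA3, a close relative of HNRNPA1, rose by 0.45 ± 0.115 (edgeR adjusted p = 0.00581), with overlapping ranges of 498 to 854 and 701 to 1114 CPM. HNRNPD, also called AUF1, which binds AU-rich elements and governs the decay of their mRNAs, rose by 0.38 ± 0.0646, from 359 to 496 CPM in whole-cell to 528 to 615 CPM in cytoplasmic RNA, without overlap.

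HNRNPA2B1, a relative of HNRNPA1 with the same kind of RNA-recognition motifs, and HNRNPDL, a paralogue of HNRNPD, each rose by 0.32 on the log2 scale (SE 0.0583 and 0.0548). HNRNPK, a poly(C)-binding protein with KH domains, rose by 0.31 ± 0.0718. HNRNPC, which binds uridine tracts in introns, rose by 0.29 ± 0.0619. HNRNPL, which binds CA repeats, rose by 0.20 ± 0.0442. These 5 had edgeR adjusted p-values between 0.000322 and 0.00302. The 2 genes that did not pass were HNRNPH1, a G-run-binding splicing regulator, at 0.16 ± 0.105 (edgeR adjusted p = 0.234), and HNRNPU, a nuclear scaffold protein that binds chromatin-associated RNA, at 0.09 ± 0.119 (0.545). HNRNPU ranged from 1259 to 1852 CPM in whole-cell and from 1427 to 2082 CPM in cytoplasmic RNA, and HNRNPH1 from 510 to 791 and 578 to 843. Within each line alone, 8 genes were called higher in WT-res and 6 in ΔRS-res, where HNRNPA3 (0.38, adjusted p = 0.0846) and HNRNPL (0.13, adjusted p = 0.125) missed the threshold. The share of all genes called within each line is not given here, so these counts do not compare the lines. Over the mean of both lines, the same 8 genes were called without the library labelled whole-cell WT-res 3. The direct test of whether the fraction difference depended on the line called 0 of 10 members and 0.00375% of all genes with edgeR, and 0 of 10 with DESeq2, and no member had an unadjusted p below 0.05 in either.

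**Figure D2:**
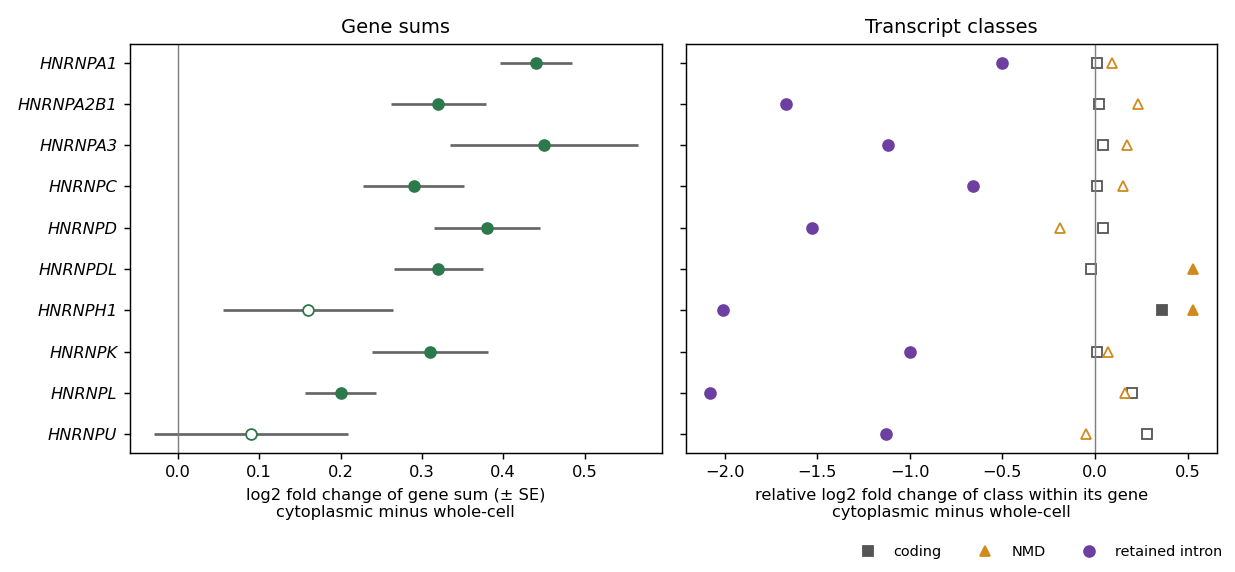
Left, log2 fold change of each gene sum (cytoplasmic minus whole-cell, mean of both lines, ± SE, 12 libraries); right, log2 fold change of each transcript class relative to its gene. Filled symbols passed an adjusted p of 0.05; 8 gene sums lie to the right of 0, and the retained-intron class lies to the left in all 9 genes that have one.

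The annotation sorts each gene's transcripts into coding, NMD, retained-intron and other classes. Transcripts annotated as retained-intron made up a smaller share of the gene in the cytoplasm for every member that has them. HNRNPDL has no such transcript. In edgeR's test of a class against its gene (diffSpliceDGE), the retained-intron class was lower in 9 of 9 members, where 64.4% of 6881 genes were called lower; the median relative log2 fold change was -1.13 in the members and -1.10 over all genes, so the members lay near the background. A test of each class against the gene's total with its own spread, here called the share test, also called 9 of 9, with a background of 73.0%. HNRNPL and HNRNPH1 had the largest differences, -2.08 and -2.01 (edgeR adjusted p = 8.95e-18 and 5.93e-16). HNRNPA1 had the smallest, -0.50 (adjusted p = 4.89e-06).

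In HNRNPH1 (chr5:179614178-179634784, minus strand), retained-intron transcripts held 33.0%, 32.6% and 33.2% of the gene's counts in WT-res whole-cell libraries and 20.1%, 20.9% and 23.8% in ΔRS-res. In the cytoplasm the shares were 9.38%, 7.07% and 6.83% in WT-res and 5.77%, 5.83% and 5.26% in ΔRS-res. The whole-cell and cytoplasmic ranges were far apart, and the lines did not overlap in either fraction. HNRNPL held 13.6% to 18.6% in whole-cell and 2.95% to 4.31% in cytoplasmic RNA. HNRNPA2B1 (chr7:26171151-26201529, minus strand) held 6.75% to 13.2% and 2.78% to 3.44%. HNRNPU held 10.5% to 35.7% and 7.06% to 9.88%, the widest whole-cell range of the 9 genes. In HNRNPC and HNRNPK, retained-intron shares were already at or below 2.14% of whole-cell counts.

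NMD-annotated transcripts did not follow the retained-intron forms. In diffSpliceDGE their share was higher in the cytoplasm in HNRNPDL (0.53, edgeR adjusted p = 0.00081) and HNRNPH1 (0.53, adjusted p = 0.00258), lower in none of the 10 members, and not called in the other 8, with a background of 11.6% called higher. The share test called 3 higher and none lower, adding HNRNPA2B1 at 0.23 ± 0.0189 (adjusted p = 4.77e-06), with a background of 16.9%. In HNRNPA2B1 the NMD class held 31.5% to 36.6% of counts in whole-cell and 39.4% to 41.4% in cytoplasmic RNA, without overlap. Most of this was HNRNPA2B1-203, a transcript of 1724 nt that held 33.3% of the gene on average. In HNRNPDL the NMD class was small, at 2.15% to 3.24% and 2.94% to 4.93%. In diffSpliceDGE the coding class was called higher in HNRNPH1 only, and the class of other transcripts lower in HNRNPH1 (-1.80). The classes come from the annotation and measure no decay.

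Single retained-intron transcripts went the same way with an exception in HNRNPA1. In the share test 50 of 60 retained-intron transcripts of the members held a lower share of their gene in the cytoplasm and 1 held a higher share, where 59.4% of 18935 such transcripts in all genes were called lower. The intron kept is shown for the 5 transcripts described next, because they set the 1 transcript that was higher in the cytoplasm beside 4 that were lower. Sequences are from the GRCh38 genome on the gene's strand, 5′ to 3′, with the first and last 2 bases of the intron, where splicing cuts, in capitals. The introns lie at chr12:54282487-54282572 and chr12:54281503-54281794 (HNRNPA1, plus strand), chr5:179621036-179621241 (HNRNPH1), chr19:38840377-38840487 (HNRNPL) and chr7:26197018-26197314 (HNRNPA2B1, the last 3 on the minus strand).
HNRNPA1-259: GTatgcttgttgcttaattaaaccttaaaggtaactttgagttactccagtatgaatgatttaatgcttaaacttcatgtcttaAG
HNRNPA1-280: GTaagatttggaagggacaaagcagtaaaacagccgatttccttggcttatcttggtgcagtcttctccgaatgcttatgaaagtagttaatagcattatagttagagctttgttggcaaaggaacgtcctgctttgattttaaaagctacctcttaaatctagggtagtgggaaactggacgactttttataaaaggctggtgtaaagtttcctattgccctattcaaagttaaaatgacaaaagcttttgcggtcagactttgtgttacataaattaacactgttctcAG
HNRNPH1-223: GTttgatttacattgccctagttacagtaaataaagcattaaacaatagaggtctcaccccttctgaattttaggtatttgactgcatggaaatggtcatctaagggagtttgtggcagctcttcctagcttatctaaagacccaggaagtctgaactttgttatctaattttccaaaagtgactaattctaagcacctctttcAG
HNRNPL-206: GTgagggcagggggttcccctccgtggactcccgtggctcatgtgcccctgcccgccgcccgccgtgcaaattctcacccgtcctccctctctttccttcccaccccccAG
HNRNPA2B1-217: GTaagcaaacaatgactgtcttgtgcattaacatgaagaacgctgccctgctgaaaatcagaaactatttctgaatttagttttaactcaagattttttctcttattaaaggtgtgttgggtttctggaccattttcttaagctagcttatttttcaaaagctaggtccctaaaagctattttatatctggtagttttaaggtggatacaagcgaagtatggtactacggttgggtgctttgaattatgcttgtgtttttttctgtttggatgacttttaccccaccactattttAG

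HNRNPA1-259 keeps the 86-nt intron and was the only retained-intron transcript of the 60 called higher in the cytoplasm by the share test without the replicate block. With the block 2 were called higher, HNRNPA1-259 and HNRNPC-214. It held 2.71%, 2.37% and 2.30% of the gene's counts in WT-res whole-cell libraries and 3.40%, 3.67% and 2.59% in ΔRS-res. In the cytoplasm it held 3.44%, 3.89% and 3.20%, then 4.07%, 3.78% and 3.61%. The fractions overlapped slightly, and the log2 difference of the share was 0.38 ± 0.0887 (edgeR share test, adjusted p = 0.00758), while diffSpliceDGE did not call it (0.37, adjusted p = 0.0717). HNRNPA1-280 keeps the 292-nt intron of the same gene and went the other way, from 1.72% to 2.67% in whole-cell to 0.303% to 0.563% in cytoplasmic RNA (-2.19 ± 0.141, adjusted p = 3.16e-06). Summed over all retained-intron transcripts that keep them, the 86-nt intron stood at a mean of 67.2 CPM in whole-cell and 99.9 CPM in cytoplasmic RNA, and the 292-nt intron at 48.2 and 13.4 CPM.

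HNRNPH1-223 keeps a 206-nt intron and had a larger decrease than the other transcripts printed above. Its share was 3.76% to 7.73% in whole-cell and 0.490% to 1.05% in cytoplasmic libraries, a log2 difference of -3.25 ± 0.203 (share test, adjusted p = 2.7e-06). HNRNPH1-227, which keeps several introns, went from 7.11% to 12.1% down to 2.19% to 3.88% (-1.63 ± 0.0595). HNRNPL-206 keeps a 111-nt intron with a GC content of 69.4%, against 30.2% to 37.7% in the 4 other introns shown, and went from 6.06% to 8.08% down to 1.28% to 1.83% (-2.17 ± 0.0955). HNRNPA2B1-217, with a 297-nt intron, went from 0.921% to 1.73% down to 0.372% to 0.530% (-1.61 ± 0.0906). In these 4 transcripts every cytoplasmic library lay below every whole-cell library. Between the lines, HNRNPH1-223 held 6.62%, 6.63% and 7.73% in WT-res and 3.90%, 3.76% and 5.51% in ΔRS-res whole-cell libraries.

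Not every transcript in the class keeps an intron of a coding isoform. In HNRNPC none of the 6 does, counting introns that at least 10% of the gene's coding counts splice out. In HNRNPK 1 of the 4 does, at a mean of 1.68 CPM in whole-cell RNA, where the class held 10.5 to 13.5 CPM. In HNRNPU, HNRNPU-231 held 9.83% of the gene's counts on average, more than any other transcript of the class among the members. It is 13084 nt long, keeps no coding intron, and runs 6286 bases past the end of the coding transcripts. It held 6.56% to 27.3% in whole-cell and 4.90% to 7.85% in cytoplasmic RNA (-1.05 ± 0.22, share test, adjusted p = 0.00408), with the 27.3% in the library labelled whole-cell WT-res 3. In HNRNPDL, which has no retained-intron class, the coding-annotated HNRNPDL-204 with 679 bases found in no other transcript went from 10.0% to 22.6% down to 2.47% to 5.03% (-2.08 ± 0.225, adjusted p = 6.33e-05).

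**Figure D3:**
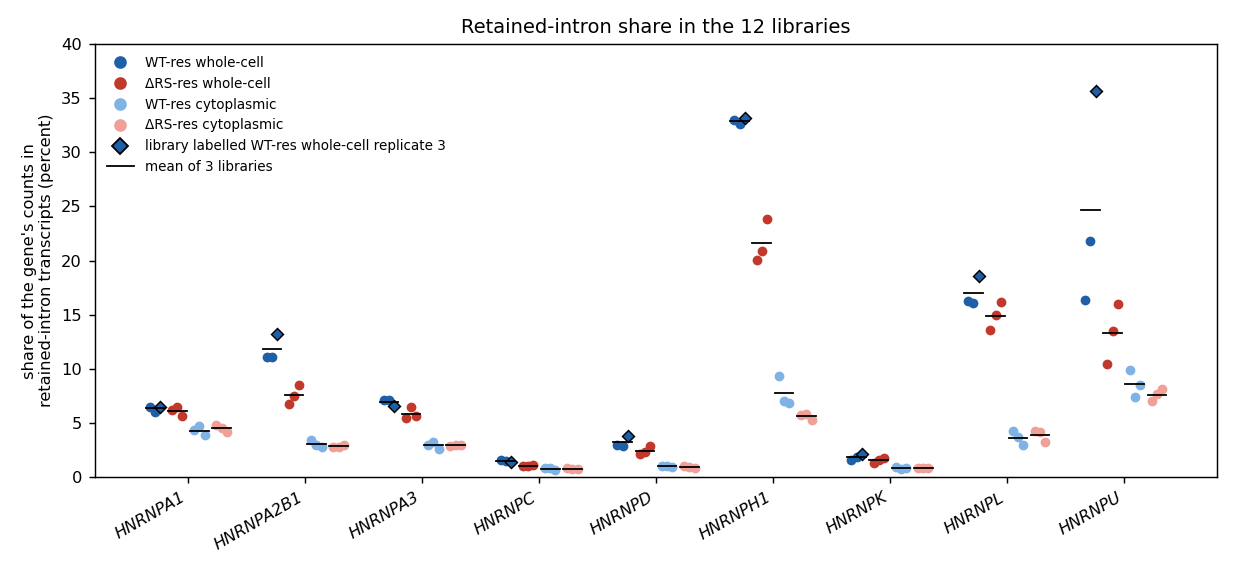
Share of each gene's counts in retained-intron transcripts (percent) in each of the 12 libraries for the 9 genes with such transcripts; bars are means of 3 and the diamond is the library labelled whole-cell WT-res 3. HNRNPH1 falls from 20.1% or more in whole-cell to 9.38% or less in cytoplasmic RNA, and its WT-res whole-cell libraries lie above the ΔRS-res ones.

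Between the lines, whole-cell gene sums of the hnRNPs did not differ past the threshold. With edgeR, 0 of 10 were called in the 6 whole-cell libraries, as were 0% of 26793 genes. An unadjusted p below 0.05 was found for 1 member, HNRNPDL (-0.21 ± 0.0714, adjusted p = 0.3), and for 3360 of all genes tested. DESeq2 also called 0 of 10, although it called 269 genes higher and 795 lower. HNRNPA3 had the lowest estimate, -0.39 ± 0.2 (ΔRS-res minus WT-res, edgeR adjusted p = 0.491), followed by HNRNPH1 at -0.30 ± 0.153 (0.486). Without the library labelled whole-cell WT-res 3, HNRNPA3 was called at -0.60 ± 0.0888 (edgeR adjusted p = 0.0196), where 2.06% of genes were called, and HNRNPH1 stood at -0.46 ± 0.0907 (0.0588). This leaves 2 WT-res libraries.

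HNRNPA3 (chr2:177212694-177223959, plus strand) was the member with the clearest difference between the lines. It held 838, 854 and 499 CPM in WT-res whole-cell libraries and 582, 597 and 498 in ΔRS-res. The 499 CPM belongs to the library labelled whole-cell WT-res 3 and lies at the level of the lowest ΔRS-res library. In the cytoplasm HNRNPA3 held 975, 1114 and 986 CPM in WT-res and 748, 748 and 701 in ΔRS-res, without overlap. Over the 6 cytoplasmic libraries it was the only member called, at -0.51 ± 0.0845 (fold 0.704, edgeR adjusted p = 0.0285), with 1.53% of 25949 genes called. This call was lost when any single library was left out, at log2 fold changes between -0.54 and -0.44, and when all 12 libraries shared 1 estimate of the spread (adjusted p = 0.204). DESeq2 called it too (adjusted p = 3.53e-05).

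The neighbours of HNRNPA3 were lower in ΔRS-res as well. The 53 expressed genes within 5 Mb on either side had a median log2 fold change of -0.57 in the 6 cytoplasmic libraries, and 94.3% of them lay below 0, against a median of 0.01 over 14938 genes with the same expression minimum. In whole-cell RNA the neighbours' median was -0.44, and -0.58 without the library labelled whole-cell WT-res 3. The part of this stretch in the HNRNPA3 difference was not tested. The neighbourhoods of the other 9 members had medians from -0.05 to 0.07 in whole-cell RNA, and from -0.02 to 0.04 over the 6 cytoplasmic libraries.

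The study kept 4 cytoplasmic libraries, replicates 1 and 3 of WT-res and 1 and 2 of ΔRS-res. Over these, which are part of the 6, edgeR called 3 of 10 members, where 22.1% of 25814 genes were called. HNRNPA3 was lower (-0.39 ± 0.0456, adjusted p = 0.00316), and HNRNPK (0.22 ± 0.0544, adjusted p = 0.0326) and HNRNPU (0.25 ± 0.0619, adjusted p = 0.0361) were higher in ΔRS-res. HNRNPK held 760 and 853 CPM in the WT-res libraries and 932 and 955 CPM in ΔRS-res. HNRNPU held 1601 and 1523 CPM against 1911 and 1808 CPM. The libraries left out held 942 CPM of HNRNPK and 2082 CPM of HNRNPU in WT-res, and 815 and 1427 CPM in ΔRS-res, so both orders were crossed by the omitted libraries. The kept libraries also differ in exon shares described below. The 57-nt exon of HNRNPD was in 79.8% and 80.8% of coding counts in the WT-res libraries and 86.5% and 87.1% in ΔRS-res. Replicate 3 of all 4 groups lay at 79.4% to 80.8%. Line and this grouping of libraries cannot be told apart in the 4 libraries. Leaving out either ΔRS-res library left HNRNPA3 as the only call, in fits where the lone ΔRS-res sample is assumed to vary like the WT-res libraries. With all 12 libraries in 1 fit none of these 3 passed (adjusted p = 0.343, 0.346 and 0.493).

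**Figure D4:**
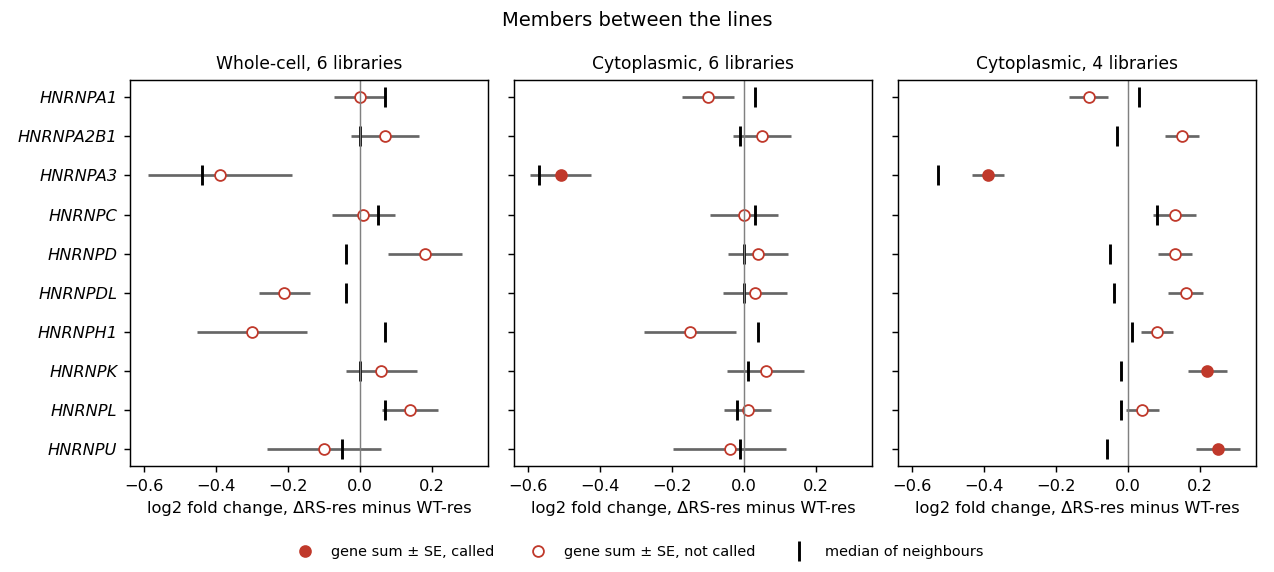
Log2 fold change of each gene sum (ΔRS-res minus WT-res, ± SE) in 6 whole-cell, 6 cytoplasmic and the study's 4 cytoplasmic libraries; black ticks are the median of expressed genes within 5 Mb. Filled points passed an adjusted p of 0.05; only for HNRNPA3 do the neighbours lie away from 0, at -0.44, -0.57 and -0.53.

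Retained-intron shares were lower in ΔRS-res whole-cell RNA for several members. In 5 of 9 members, HNRNPA2B1, HNRNPA3, HNRNPC, HNRNPH1 and HNRNPU, every ΔRS-res whole-cell library had a lower retained-intron share than every WT-res library, where this held for 20.5% of 7210 genes. Without the library labelled whole-cell WT-res 3 it held for 5 of 9 members and 28.4% of genes. The class follows the annotation, and neither the HNRNPC transcripts in it nor HNRNPU-231 keep an intron of a coding isoform. In HNRNPA2B1 the shares were 11.1%, 11.1% and 13.2% in WT-res and 6.75%, 7.49% and 8.56% in ΔRS-res. In HNRNPU they were 16.4%, 21.8% and 35.7% against 10.5%, 13.5% and 16.0%, where the lowest WT-res value nearly met the highest ΔRS-res value. The median share over the 7210 genes was 6.08% to 6.40% in WT-res and 5.48% to 5.82% in ΔRS-res whole-cell libraries.

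As a level, HNRNPH1 retained-intron transcripts held 258, 258 and 181 CPM in WT-res whole-cell libraries and 120, 129 and 121 CPM in ΔRS-res. Its coding transcripts held 499, 507 and 349 CPM against 458, 472 and 375 CPM. Without the library labelled whole-cell WT-res 3, the coding levels of WT-res also lay above those of ΔRS-res. Over all 6 libraries the retained-intron levels did not overlap and the coding levels did, and the same held in HNRNPA2B1, with 124, 119 and 128 against 78.6, 86.8 and 85.3 CPM for the retained-intron class. The library labelled whole-cell WT-res 3, which sits with ΔRS-res for DDX19B, SDHA and HNRNPA3, sat with WT-res for the HNRNPH1 share (33.2%) and had the highest retained-intron share of HNRNPA2B1 and HNRNPU. It also had the highest MALAT1 (3062 CPM) and NEAT1 (327 CPM) of the 12 libraries. The nuclear RNAs were lower in ΔRS-res whole-cell means, as the retained-intron shares were, with MALAT1 at 2116 CPM in WT-res against 1631 CPM (-0.38 ± 0.271, edgeR adjusted p = 0.643). NEAT1 stood at 284 and 244 CPM (-0.22 ± 0.167, edgeR adjusted p = 0.669) and KCNQ1OT1 at 28.4 and 22.7 CPM (-0.33 ± 0.0857, edgeR adjusted p = 0.213). None of the 3 passed the test, and the part of nuclear RNA content in the retained-intron shares was not tested.

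These shares were tested between the lines after the data were seen, and the tests did not give 1 answer. In diffSpliceDGE over the 6 whole-cell libraries no class of a member passed, with HNRNPA2B1 at -0.64 (edgeR adjusted p = 0.0518), HNRNPH1 at -0.62 (0.46) and HNRNPU at -0.86 (0.481), all 3 at an unadjusted p below 0.05. Whole-cell libraries with the same replicate number deviated together between the lines. With the replicate number as a block the 3 genes passed, at adjusted p = 0.00213, 0.0271 and 0.0112, where 5 of 7096 genes (0.0705%) were called lower. HNRNPH1 also passed without the library labelled whole-cell WT-res 3 (-0.61, adjusted p = 0.00926), while HNRNPA2B1 (-0.56, adjusted p = 0.0673) and HNRNPU (-0.55, adjusted p = 0.893) did not. The share test, which has little power with 6 libraries, called no class of any gene, with or without the block. Of the 9 retained-intron classes it had 5 at an unadjusted p below 0.05, where 17.6% of 7096 genes had one, and 8 with the block, where 21.1% had one. HNRNPH1 stood at -0.61 ± 0.0634 (adjusted p = 0.198). In the 6 cytoplasmic libraries the HNRNPH1 class stood at -0.45 in diffSpliceDGE (unadjusted p = 0.01, adjusted p = 1), and no retained-intron class was called by either test. The direct test of whether the line difference depended on the fraction called no class of a member. In diffSpliceDGE HNRNPH1 stood at 0.17 (unadjusted p = 0.481), HNRNPA2B1 at 0.55 (0.00787) and HNRNPU at 0.69 (0.0259). The share test had 2 of 9 retained-intron classes at an unadjusted p below 0.05, where 515 of 6881 genes had one.

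Single transcripts gave few calls between the lines. edgeR called 0 of 226 member transcripts in whole-cell RNA, as it did for all transcripts (0% of 129700). Of the 226, 45 had an unadjusted p below 0.05, where 9487 of all 129700 had one. In the 6 cytoplasmic libraries edgeR called 0 of 229, where 0.0241% of all transcripts were called. Of the 229, 28 had an unadjusted p below 0.05, where 6513 of all 124558 had one. DESeq2 called 30 member transcripts in whole-cell RNA, 27 of them lower in ΔRS-res, where 0.971% of all transcripts were called lower. Of its 30 calls, 20 were retained-intron transcripts, all lower in ΔRS-res. The 30 calls held 8 transcripts of HNRNPH1, 7 of HNRNPU and 5 of HNRNPA2B1, among them HNRNPH1-223 (-0.91 ± 0.142, DESeq2 adjusted p = 9.7e-08) and HNRNPA2B1-217 (-0.59 ± 0.0964, adjusted p = 4e-07). In the cytoplasm DESeq2 called 11, of which 5 HNRNPA3 transcripts, 4 HNRNPH1 transcripts and 1 HNRNPA2B1 transcript were lower in ΔRS-res, where 0.666% of 124558 transcripts were called lower and as many higher.

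In the usage test (diffSpliceDGE on transcripts) HNRNPK-204 was the only member transcript called in either fraction, where 0.414% of transcripts were called in whole-cell and 0.314% in cytoplasmic RNA. HNRNPK-204 is a coding form of 2889 nt with no base and no junction of its own. It held 359, 562 and 278 counts in WT-res whole-cell libraries and 0, 0.24 and 0.45 in ΔRS-res. In the cytoplasm it held 352, 5.27 and 571 counts in WT-res and 0.44, 37.9 and 11.8 in ΔRS-res. It was below 1% of HNRNPK counts throughout and its cytoplasmic values overlapped between the lines. The share test called no member transcript in either fraction. Of the members' retained-intron transcripts it had 29 of 62 at an unadjusted p below 0.05 in whole-cell RNA, where 9.07% of 20364 retained-intron transcripts in all genes had one. In cytoplasmic RNA it had 5 of 56, where 2.33% of 15651 had one.

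Each gene was carried by a few transcripts. In all, 45 transcripts held at least 5% of their gene's counts, from 2 in HNRNPA2B1 to 8 in HNRNPU, and together they held 81.3% to 96.2% of each gene. Of these, 38 were annotated as coding, 5 as targets of nonsense-mediated decay and 2 as retained-intron transcripts. The leading transcript held 55.9% of its gene in HNRNPA2B1, and HNRNPDL-206 57.5%, HNRNPH1-203 42.0%, HNRNPK-205 36.7% and HNRNPL-210 34.7%. In HNRNPU the leading transcript, HNRNPU-226, held 14.0%. RSEM divided reads among these overlapping forms, so shares of forms without bases of their own are estimates.

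Some exons are held by some coding isoforms and skipped by others. Each exon share given here is of the coding counts that hold exactly that exon or skip it. Of 12 such exons with at least 1000 counts, 4 are printed because their share differed between the fractions (HNRNPA1), differed most among those that missed the threshold (HNRNPA3) or because they define the known AUF1 protein forms (HNRNPD). Capitals mark the exon, and the 10 bases of intron on each side are in lower case. The exons lie at chr12:54282573-54282662 (HNRNPA1, plus strand), chr2:177217705-177217845 (HNRNPA3, plus strand), chr4:82356537-82356683 and chr4:82371528-82371584 (HNRNPD, minus strand). Each has a length that is a multiple of 3, so the reading frame is kept when it is skipped.
HNRNPA1 90-nt exon: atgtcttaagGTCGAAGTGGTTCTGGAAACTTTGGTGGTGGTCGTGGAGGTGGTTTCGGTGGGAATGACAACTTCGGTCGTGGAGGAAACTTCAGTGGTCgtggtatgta
HNRNPA3 141-nt exon: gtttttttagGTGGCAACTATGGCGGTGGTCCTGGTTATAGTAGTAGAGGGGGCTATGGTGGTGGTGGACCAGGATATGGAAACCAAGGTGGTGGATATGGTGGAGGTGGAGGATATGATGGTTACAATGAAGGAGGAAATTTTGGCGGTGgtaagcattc
HNRNPD 147-nt exon: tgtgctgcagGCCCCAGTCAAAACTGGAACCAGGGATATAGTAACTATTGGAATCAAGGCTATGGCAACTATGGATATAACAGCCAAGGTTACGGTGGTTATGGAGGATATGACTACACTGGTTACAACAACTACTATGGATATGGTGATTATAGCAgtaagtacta
HNRNPD 57-nt exon: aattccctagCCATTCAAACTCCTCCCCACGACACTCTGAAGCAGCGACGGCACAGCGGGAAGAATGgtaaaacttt

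The 90-nt exon of HNRNPA1 begins at the base after the 86-nt intron kept in HNRNPA1-259. Among coding counts that hold exactly this exon or skip it, 89.7% to 93.3% held it in whole-cell RNA. In cytoplasmic RNA 87.1% to 88.7% did, without overlap. The difference was -3.56 percentage points (two-sided exact permutation test, 6 against 6 libraries, p = 0.00216, adjusted over 12 exons 0.026). Forms that start at the same base and end elsewhere are not in this share. Of these, the 97-nt form held a mean of 28657 counts, against 20183 for the 90-nt exon. Set against the same mean of 2333 skipping counts, the 97-nt form stood at 92.4% in both fractions. The 90-nt share is therefore not a measure of skipping over all forms. The 141-nt exon of HNRNPA3 went from 90.2% ± 1.95 to 85.5% ± 4.24 (SD, n = 6 each) and missed the threshold after adjustment (exact permutation test p = 0.0238, adjusted 0.0952). Another 9 exons, the 97-nt form of HNRNPA1 among them, had adjusted p-values from 0.312 to 0.929. These tests between fractions were added after the data were seen.

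In HNRNPD the 147-nt exon was in 53.2% to 60.0% and the 57-nt exon in 79.4% to 87.1% of coding counts over all 12 libraries. The 57-nt exon was low, at 79.4% to 80.8%, in replicate 3 of all 4 groups and in WT-res cytoplasmic replicate 1, and lay at 85.7% to 87.1% in the other 7 libraries. The 147-nt exon was high, at 56.7% to 60.0%, in the same 5 libraries, and the lines and fractions overlapped in both exons. The 90-nt exon of HNRNPH1 was likewise at 89.2% to 90.2% in these 5 and at 85.3% to 87.0% in the other 7 libraries. Whether a replicate number marks a shared passage is not stated in the sources used here, and the part of passage in these values was not tested. The 72-nt exon of HNRNPK was in 89.6% to 91.2% and the 81-nt exon of HNRNPA3 in 68.0% to 80.0%. Between the lines in whole-cell RNA, 2 exons of the 12 did not overlap, both in HNRNPU and neither a multiple of 3 in length. Each is skipped by 1 coding transcript, at the same mean of 20264 counts, so the 2 shares are not independent. The 74-nt exon was in 78.5%, 82.1% and 82.9% in WT-res and 77.3%, 77.7% and 78.5% in ΔRS-res, and the 112-nt exon in 71.0%, 75.0% and 75.5% against 67.7%, 68.9% and 69.4%. The 74-nt values of the lines nearly met at 78.5%. An exact permutation test of 3 against 3 libraries cannot go below p = 0.1, the value reached by both. Cassette exons of other genes were not counted, so the 2 of 12 have no background.

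**Figure D5:**
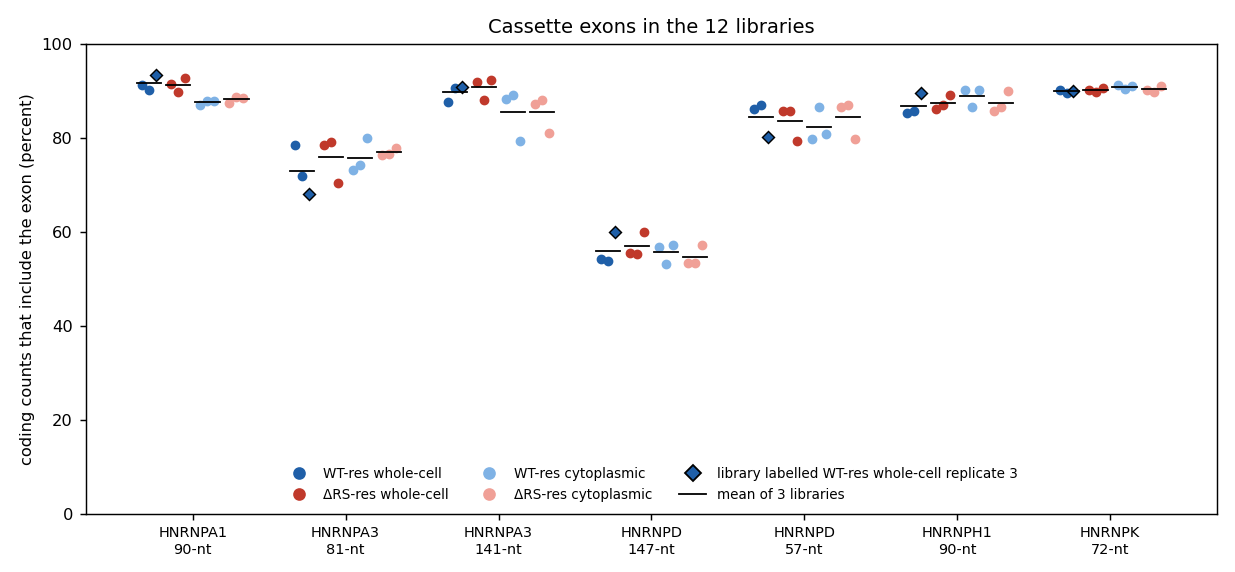
Share of coding counts with each of 7 cassette exons of a length divisible by 3 (percent) in each of the 12 libraries. The share is of counts that hold exactly that exon or skip it. Bars are means of 3 and the diamond is the library labelled whole-cell WT-res 3. The 90-nt exon of HNRNPA1 lies at 89.7% or more in whole-cell and at 88.7% or less in cytoplasmic RNA, and the 57-nt exon of HNRNPD lies either at 79.4% to 80.8% or at 85.7% to 87.1%.

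Reads of near-identical copies could blur some of these values. HNRNPA1 has 76 annotated pseudogenes or copies, which held 1.53% to 1.74% as many counts as the gene in each library, and HNRNPA3 has 16 with 0.344% to 0.473%. Adding them to the gene changed none of the calls of gene sums. HNRNPA2B1 overlaps CBX3 on the opposite strand, with 20.9% as many counts, and HNRNPA3 overlaps NFE2L2, with 9.21%, and the strand setting of the counting was not given in the sources used here.

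Of 19 other hnRNP genes, 15 were higher in cytoplasmic than in whole-cell RNA and none was lower, with a median log2 fold change of 0.31. The largest of the called values were in PTBP3 (0.60 ± 0.053), a polypyrimidine-tract-binding splicing repressor, and SYNCRIP (0.50 ± 0.0636), a cytoplasmic and nuclear hnRNP also known as hnRNP Q. Between the lines their medians were 0.06 in whole-cell and 0.05 in the 6 cytoplasmic libraries, and edgeR called none of the 19 in either. Over the study's 4 cytoplasmic libraries 9 were higher and none lower in ΔRS-res, where 10.7% of 25814 genes were called higher and 2952 genes lower. They were led by HNRNPM (0.71 ± 0.0565, edgeR adjusted p = 0.00127). Over the 6 cytoplasmic libraries HNRNPM stood at 0.17 ± 0.272, with 318 to 558 CPM in WT-res and 316 to 547 CPM in ΔRS-res. In the study's 4 libraries the line and the grouping of libraries by exon shares cannot be told apart. Of 4 genes for proteins that import or methylate hnRNPs, TNPO1 (0.47), the import receptor of HNRNPA1 protein, PRMT5 (0.40) and PRMT1 (0.35) were higher in the cytoplasm. Among NMD factors, UPF3B (0.95 ± 0.0885), UPF2 (0.84 ± 0.0755) and SMG5 (0.24) were higher there, where 23.7% of all genes were. UPF1, UPF3A, SMG1, SMG6, SMG8 and SMG9 stood at 0.00 to 0.08 and were not called. None of UPF3B, UPF2 and SMG5 was called between the lines in whole-cell or in the 6 cytoplasmic libraries.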

How the data were processed

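RNA of 12 libraries was measured by rRNA-depleted RNA-seq. The authors ran nf-core/rnaseq with Trim Galore, STAR and RSEM on GRCh38 and the transcripts of Ensembl release 107. Tool versions and strandedness are not given in the sources used here. The deposited values are expected counts per transcript, which share reads among overlapping isoforms. They were rounded and summed per gene or per transcript class. Classes, exons and introns were taken from GENCODE release 44 on GRCh38, which matched 99.83% of genes and 99.72% of transcripts (2 member transcripts unmatched). CPM used TMM library sizes.

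Groups followed line and fraction. edgeR 4.0.16 (R 4.3.3) quasi-likelihood tests, diffSpliceDGE and a share test (a class or transcript against its gene's total) ran over all features with a mean count above 2, or above 10 for usage, with Benjamini-Hochberg adjustment and a threshold of 0.05. DESeq2 1.42.0 was an alternative. The scripts were tested on simulated data, in which diffSpliceDGE also called unchanged transcripts, and the share test was therefore added after the data were seen. In the self-test with 6 libraries the share test in turn missed most planted differences, so the absence of its calls between the lines says little. The members, lists and tests were chosen with earlier results of these data known. All members and all transcripts with at least 5% of their gene or called in a test could be named, and the retained-intron transcripts and HNRNPDL-204 outside that rule were picked once their values were known. Cassette exons needed 1000 counts and 5% in the less used form. The results of 1 exon and 1 gene are not reported here.

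Samples were collected at consecutive passages, and whether a shared replicate number marks a shared passage is not stated. The deviations of same-numbered libraries from the group means correlated between the lines in whole-cell RNA (r = 0.544, 0.549 and 0.683 over 14938 genes) and not in every cytoplasmic pair (-0.415, 0.618 and 0.467), so the replicate block was read as a pairing in whole-cell RNA only. P-values measure the spread between passages of 1 line each. Depth was 90333190 to 144628005 counts per library, and RSEM's uncertainty in dividing reads is not in the errors.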

Additional observations from a re-analysis of the deposited data

How the results depend on the processing

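The call of 8 of 10 gene sums higher in the cytoplasm held under all 17 alternatives, as did 0 calls for the interaction, where the HNRNPA3 estimate ranged from -0.26 to 0.07 when single libraries were left out and turned from -0.14 to 0.07 without the library labelled whole-cell WT-res 3. Between the lines, the count of members called in whole-cell RNA ranged from 0 to 1 when single libraries were left out, with 1 (HNRNPA3) without that library; with the replicate block as pairing it stayed 0, while 746 genes were called higher and 1391 lower over all genes, and DESeq2 called 269 higher and 795 lower against 0 by edgeR. In the cytoplasm the count was 0 with all 12 libraries in 1 fit, both for 6 and for 4 libraries. It was 0 whichever of the 6 libraries was left out, and 1 to 3 for the 4, where the lone sample of a line is assumed to vary like the other line. In the 6, DESeq2 called 426 genes higher and 507 lower, and edgeR 150 and 246. No paired analysis was possible because the study's 4 libraries share only number 1.

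For single transcripts, DESeq2 called 30 members in whole-cell RNA and 11 in the cytoplasm, and a threshold on the unadjusted p (0.05) and the size of the log2 fold change (0.5) gave 33 and 24. For usage in whole-cell RNA the count of 1 became 6 with the replicate block, 17 unadjusted, 0 in the share test with or without the block, and 1 to 2 when single libraries were left out. For usage in the cytoplasm it became 0 with the replicate block, 6 in the study's libraries, 10 unadjusted, 0 in the share test, and 1 to 4 when single libraries were left out. For the counts at unadjusted thresholds in this paragraph, the share over all transcripts is not given here. Classes called between the fractions went from 13 of 32 to 21 in the share test and 24 with its replicate block. Of cassette exons, 2 did not overlap between the lines in whole-cell RNA, 0 when all transcripts spanning the exon were counted and 7 without the library labelled whole-cell WT-res 3. Cassette exons of other genes were not counted, so these counts have no background. Fewer libraries separate more readily, and exons of the same gene can share transcripts, so the rise is not read as a difference between the lines. The causes were not tested. Of single values, 472 kept direction and side of the threshold, 5 gained and 17 lost a call, and 1 turned direction.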

Other observations

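The genes whose log2 CPM ran most like a member's over the 12 libraries, among 10103 genes above a mean of 10 CPM, are given as a description, since the points share libraries and fractions. For HNRNPA3 they were MRPL44 (Pearson r = 0.995), TRIP12 (0.993) and AGFG1 (0.988), all on chromosome 2 like HNRNPA3. For HNRNPK the nearest was ILF2 (0.996), for HNRNPC RPA2 (0.996), for HNRNPD AATF (0.993) and for HNRNPL USP22 (0.978). HNRNPA1 ran most like USP6NL (0.994) and its own near copy HNRNPA1L3 (0.992). HNRNPH1 (CCNYL1, 0.966) and HNRNPU (UTP20, 0.970) had the lowest best values of the 10.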
